A study of Mus musculus with 7 samples.

Results

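The muscle m6A peaks that the authors' annotation places in the 5′ untranslated region (5′UTR) were described here. All 278 peaks with this class in the deposited muscle table were taken, out of 5412 listed peaks (5.14%), and no measured value entered the choice. They lie in 276 of the 3983 genes of the table, since Hyal1 and Trak1 carry 2 each, and 272 separate intervals of the genome remain when overlapping peaks are merged. All but that of the microRNA gene Mir8114 are in genes annotated as protein-coding. In m6A MeRIP-Seq, an antibody that binds N6-methyladenosine (m6A) pulls down pieces of polyA RNA, and a peak is a stretch that is enriched in this immunoprecipitate (IP) over the input RNA sequenced beside it. The muscle libraries came from C57BL/6 mice, with 1 IP and 1 input library each for METTL3 cKO (Pax7CreERT2; METTL3 flox/flox) and CTL (Pax7CreERT2; METTL3 wt/wt). All animals received tamoxifen on consecutive days and then cardiotoxin (CTX) in the tibialis anterior muscle, and the tissue was taken at day 2. Pax7CreERT2 acts in Pax7-expressing muscle stem cells only, whereas the labels give the RNA source as muscle and the cell type as muscle stem cell. The series also holds 2 IP libraries and 1 input library of C2C12, a mouse myoblast line. The labels call the genotype of the C2C12 IP samples a knockout, and what was knocked out could not be settled from them.

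Each muscle peak has 1 fold enrichment of IP over input for both genotypes together, so no value per library, no SD and no depth can be given, and the genotypes were not compared here. The table is the authors' list from their differential test between cKO and CTL. A 5′UTR peak that did not pass that test is therefore missing from it, and the shares below describe listed peaks and not all methylated 5′UTRs. Of the defining markers, no 5′UTR peak was listed for any of the 5 muscle fibre, 5 muscle stem cell, 5 macrophage, 5 fibroblast or 5 endothelial genes, and a peak list holds no expression values, so the labelled cell type could not be checked. Intervals are 95% intervals and cover counting error only.

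In mRNA, m6A is written by the METTL3-METTL14 complex, mostly near stop codons and in 3′UTRs, and it is read by proteins of the YTH family. In the 5′UTR the mark is known from stress and heat shock, where it can help ribosomes to start without the usual cap-binding factors. The 5′ end of many mRNAs also carries m6Am, a related mark on the first transcribed adenosine that PCIF1 writes and that antibodies against m6A capture too. A 5′UTR peak may therefore hold either mark, and the motif of METTL3 is one feature by which they differ.

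The authors' table lists the GGAC sites in each peak, GGAC being the core of the METTL3 motif. The sequences of sites in 5′UTR peaks are shown first, since they are what the antibody signal is read against. They were read from the RefSeq promoter windows of GRCm38.p6, which run from 250 bases before to 50 bases after a gene's start and so reach only the sites next to a start. Of 53 listed sites within a window of the same gene, 46 read GGAC on the gene's strand. The other 7 lie in peaks of several exon blocks, in Cdkn2c, Prr5l, Slx4 and Cnot8. The following sites, 1 from each gene, are from peaks at both high and low enrichment. All are in 30 bases from 5′ to 3′ with the GGAC in capitals, and for Ybx1 the site nearest to the start is shown.
Fbf1, fold enrichment 254, chr11:116168135-116168164, minus strand: ggctgcgaggtgGGACtgtcgccggcggag
Ep300, fold enrichment 172, chr15:81586211-81586240, plus strand: tgagaaggaggaGGACagcgccgaggagga
Fosl2, fold enrichment 142, chr5:32136452-32136481, plus strand: gagggactcggtGGACaaccggttccgcgg
Zscan29, fold enrichment 108, chr2:121171101-121171130, minus strand: ggcttgagagcgGGACtgaggctagcccag
Spg20, fold enrichment 80.7, chr3:55112175-55112204, plus strand: cgggctcggagcGGACcgctggctacccgt
Dmpk, fold enrichment 16.5, chr7:19083869-19083898, plus strand: agggatagtcagGGACgggcagacatgcag
Ybx1, fold enrichment 8.09, chr4:119294537-119294566, minus strand: accaatgggggaGGACgagggcgggtctat
Hk2, fold enrichment 6.33, chr6:82774405-82774434, minus strand: gctggagtctcaGGACaccacaggctaccc

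The wider METTL3 motif asks for A, C or T after GGAC. The sites shown of Fbf1, Ep300, Fosl2, Zscan29, Spg20 and Hk2 meet it, and those of Dmpk and Ybx1, where G follows, do not. The other listed sites of the Ybx1 peak have C, C and A after GGAC and do meet it. Fbf1 encodes a protein of the ciliary base, Ep300 a histone acetyltransferase, Fosl2 a subunit of the AP-1 transcription factor, Zscan29 a zinc finger protein and Spg20 spartin. Dmpk encodes the kinase whose repeat expansion causes myotonic dystrophy, Hk2 a hexokinase of muscle, and Ybx1 an mRNA-binding protein. With the start counted as 1, the A of the sites of Fosl2 and Ybx1 lies before the RefSeq start, at -6 and -39, and that of the others after it, between 10 and 35. Over the 46 sites, 34 (73.9%, Wilson interval 59.7 to 84.4) had A, C or T after GGAC. Of these sites, 17 lie after the RefSeq start and 29 before it, so each side was set beside the same side of all protein-coding windows. After the start, 14 of 17 sites (82.4%, 59.0 to 93.8) had A, C or T, against 3641 of 4622 GGAC (78.8%) in the first 50 bases of all windows. Before the start, 20 of 29 (69.0%, 50.8 to 82.7) did, against 83.1% of 20801 GGAC. After the start the share in the peaks was slightly higher, and its interval holds the share of all windows. Before the start it was lower than in all windows. Sites of 1 peak are not independent, so these intervals are too narrow. GGAC itself, searched on the gene's strand, is common there, and 68.0% of the 21263 protein-coding windows of 300 bases hold it. A GGAC in a 5′UTR peak is thus a description of the sequence and not a mapped methylated base.

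Of the 278 peaks, 191 listed at least 1 GGAC site (68.7%, Wilson interval 63.0 to 73.9), with 537 sites in all. No site was listed in 87 peaks, 1 site in 76, 2 in 38 and 3 in 24, and the highest number was 11, in Adcy9 and Brd2. Adcy9 encodes an adenylyl cyclase and Brd2 a bromodomain protein that binds acetylated histones. Ep300 and Fbn1, the gene of the matrix protein fibrillin-1, followed with 10 sites each, and Znrf1, a ubiquitin ligase, with 9. Adcy9, Gcnt1, Brd2, Ep300 and Evi2a had the longest 5′UTR peaks, between 1522 and 2032 bp, so 3 of the 5 genes with most sites were also among the longest. Fbn1 had its 10 sites in 450 bp and Znrf1 its 9 in 1110 bp.

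Taken over all lengths, the share with a site was 15.8 percentage points lower in the 5′UTR than in coding sequence (CDS) (Newcombe interval of the difference -21.7 to -10.3) and 6.73 points higher than in the 3′UTR (0.767 to 12.2). The 5′UTR peaks were shorter, with a median of 241 bp against 600 bp in CDS and 301 bp in the 3′UTR, and a longer peak has more room for a site. When peaks of equal length were set side by side, the 5′UTR share lay close to the CDS share. Up to 181 bp it was 44.2% (34.2 to 54.7) in the 5′UTR, 46.5% (40.0 to 53.2) in CDS and 28.6% (25.1 to 32.4) in the 3′UTR. From there to 241 bp it was 62.7% (49.95 to 73.9), 69.0% and 43.8% (39.1 to 48.6), and up to 420.5 bp it was 81.0% (69.6 to 88.8), 79.6% and 62.9% (59.2 to 66.4). In these 3 length ranges the intervals of the 5′UTR and the 3′UTR do not overlap and those of the 5′UTR and CDS do. Among the longest peaks all classes reached over 90%. The number of sites per 1000 bp was 5.13 in 5′UTR peaks, 5.04 in CDS peaks and 4.12 in 3′UTR peaks. Base composition, which also sets how often GGAC occurs, was not compared, because sequence was at hand for the promoter windows only.

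**Figure D1:**
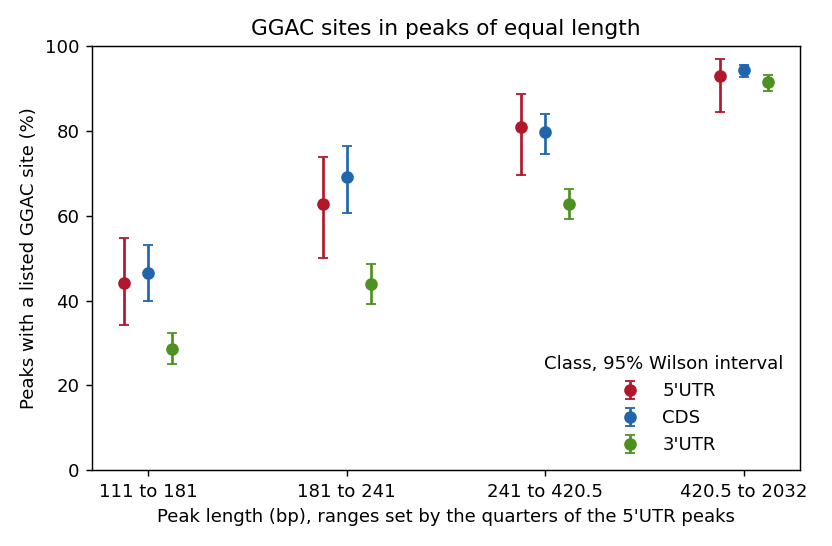
Share of peaks with a listed GGAC site (percent, y axis) by peak length (bp, x axis) for 5′UTR, CDS and 3′UTR peaks, with points as shares and bars as 95% Wilson intervals. In the 3 shorter ranges the 5′UTR points lie beside the CDS points and above the 3′UTR points.

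Within a peak, the sites were not spread evenly. Each peak of a single exon block was cut into 3 equal sections along the gene's strand. The middle section of the 5′UTR peaks held 192 of 419 sites (45.8%, 41.1 to 50.6), the first section 98 and the last 129. The middle section held 35.1% of the sites in CDS peaks and 37.8% in 3′UTR peaks. Among peaks longer than 241 bp, the 5′UTR share in the middle exceeded that of CDS by 11.3 points (5.63 to 17.0) and that of the 3′UTR by 8.34 points (2.65 to 14.1). Among peaks up to 241 bp the differences were 10.2 points (-0.723 to 21.2) and 8.43 points (-1.58 to 18.7), and both intervals hold 0. Sites of 1 peak share that peak, so these intervals are too narrow. Lengths were not matched within either range. The longest peaks, with any number of blocks, were 2032 bp in the 5′UTR, 10796 bp in CDS and 5427 bp in the 3′UTR.

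The fold enrichment of the 5′UTR peaks ran from 1.42 to 438, with a median of 9.54 (order-statistic interval 8.10 to 11.1) and quartiles of 5.10 and 25.4. The median was 26.7 (23.8 to 30.9) for CDS peaks and 9.94 (9.30 to 10.6) for 3′UTR peaks. Of the 5′UTR peaks, 110 (39.6%) reached the median of the whole table, 12.9, against 62.9% in CDS, a difference of -23.4 points (-29.4 to -17.1). Against the 3′UTR, where 43.0% did, the difference was -3.43 points (-9.31 to 2.72). The 5′UTR peaks were thus weaker than CDS peaks as listed, and a difference from the 3′UTR was not detected. The strength went with length in every class, with Spearman correlations across peaks of 0.629 in the 5′UTR, 0.781 in CDS and 0.719 in the 3′UTR. They are descriptions, since peaks share their libraries and a caller joins neighbouring windows where enrichment is high. At equal length the gap to CDS was not seen in the shorter peaks. Up to 181 bp the median was 5.49 in the 5′UTR, 3.26 in CDS and 3.80 in the 3′UTR, and from there to 241 bp it was 6.30, 4.44 and 6.34. Up to 420.5 bp it was 9.60, 9.30 and 10 in this order, and in longer peaks CDS was highest, with 50.2 in the 5′UTR, 60.4 in CDS and 40 in the 3′UTR.

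**Figure D2:**
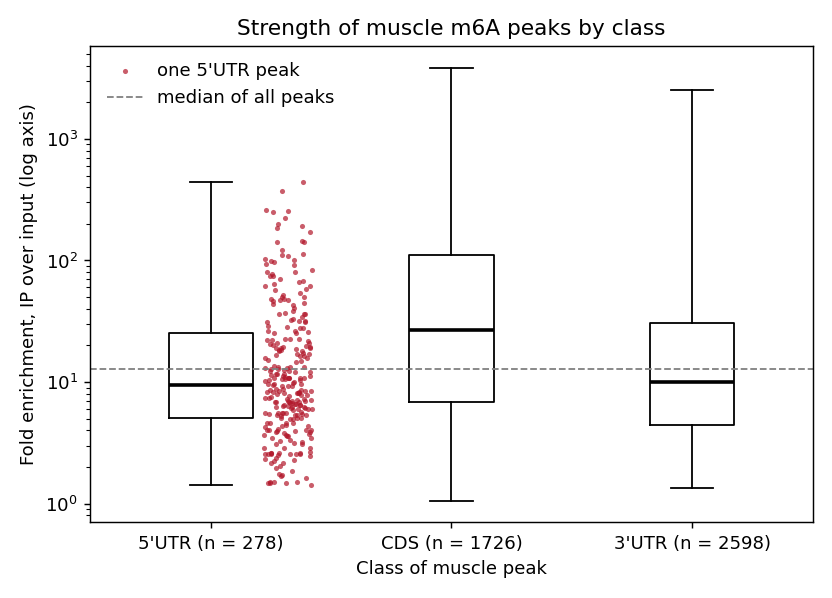
Fold enrichment of IP over input (log y axis) of muscle peaks by class (x axis). Boxes give the quartiles and the median, whiskers the full range, red points single 5′UTR peaks and the dashed line the median of all peaks, 12.9, with 110 of the 278 5′UTR peaks on or above it.

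The strongest 5′UTR peak was that of Abl1, the ABL tyrosine kinase, at a fold enrichment of 438 over 1499 bp with 8 GGAC sites. Cdkn2c, which encodes the cyclin-dependent kinase inhibitor p18, followed at 372 with 7 sites. Gm9913 stood at 262, Fbf1 at 254 and Slmap, a membrane protein of the sarcolemma, at 250. Runx2, a transcription factor of bone formation, had 225 with 8 sites, and Fam43a had 200. Adcy9 at 192, Gcnt1, a glycosyltransferase of mucin-type glycans, at 184, and Ep300 at 172 completed the 10 highest. All of these listed GGAC sites, between 3 and 11 each, and the shortest of the 10 was 568 bp long. The lowest values were those of Atf7ip, a chromatin cofactor, at 1.42, and of Ptp4a2, a phosphatase, and Gpbp1, both at 1.47. None of these 3 listed a site.

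Peaks with a site had a median fold enrichment of 11.7 and peaks without of 6.00. In 4 groups of rising fold enrichment, a site was listed in 51.4%, 59.7%, 75.4% and 88.6% of the peaks from the lowest to the highest. Length rose along with it, from a median of 181 bp to 660 bp, and the part of length was not separated from that of strength. Some strong peaks listed no site. Among them, chosen after their values were seen, were Nlk, a kinase of Wnt signalling, at 99.9 over 540 bp, and Rap1b, a small GTPase, at 74.5 over 150 bp.

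The position of the peaks was taken as the distance from the gene's nearest RefSeq start to the 5′ edge of the peak, for the 272 peaks with a start on GRCm38.p6. The other 6 belong to genes without a matched start, such as Gm9913. The peak overlapped a start in 96 cases (35.3%, 29.9 to 41.1), against 4.54% of CDS peaks and 0.117% of 3′UTR peaks. A 5′UTR lies next to a start by definition, so this order of the classes follows from the choice of members. The median edge lay 30 bp after the start, with quartiles at 0 and 254 bp. The edge was within 100 bp of a start in 164 peaks (60.3%, 54.4 to 65.9). It sat exactly on the start in 32 peaks, exactly 30 bp after it in 13 and exactly 60 bp after it in 7. Edges thus recur at steps of 30 bp, and an edge on the start does not show that reads begin there, since how the peak caller laid its windows is not given in the sources used here. Fam43a, Zscan29, Id1, Tgfb3, Hk2 and Hspb8 were among the genes with an edge at the start itself. Id1, an inhibitor of basic helix-loop-helix factors such as MyoD, had 38.1 over 179 bp with 1 site.

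**Figure D3:**
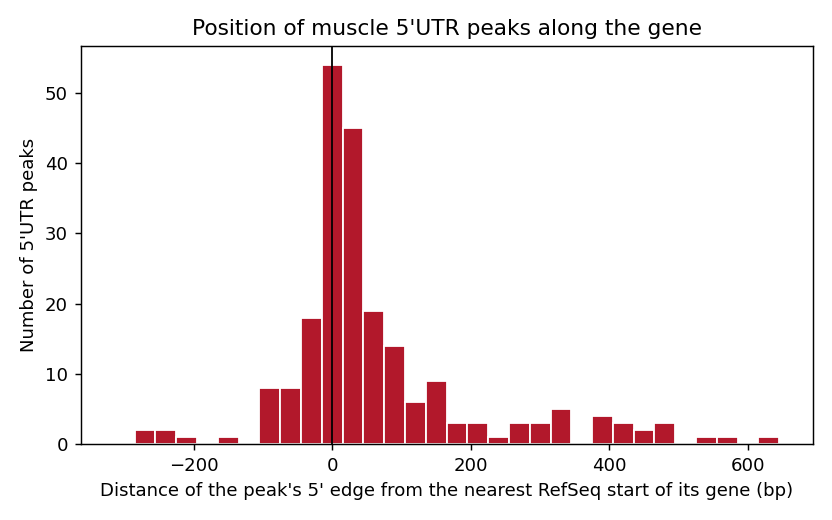
Number of 5′UTR peaks (y axis) by the distance of the peak's 5′ edge from the nearest RefSeq start of its gene (bp, x axis, negative before the start), in bins of 30 bp. The 220 peaks between -315 and 645 bp are drawn, 52 lie outside, and the highest bars stand at and just after the start.

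The edge lay more than 1000 bp from any start in 38 peaks, and their median fold enrichment was 25.5, compared with 9.94 in the peaks that overlap a start. The Runx2 peak began 78016 bp after the nearest start on the genome, that of Hivep2 160099 bp, that of Smad4 25658 bp and that of Mbnl1, a splicing factor of muscle, 28136 bp. The median length of these 38 peaks was 405 bp, against 270 bp in those that overlap a start, so length again went along with strength.

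For the peaks over a start, the first transcribed base could be read in 79 cases with a promoter window. It was A in 28 of them (35.4%, 25.8 to 46.4), G in 36, C in 10 and T in 5. Among all protein-coding windows A stood at 37.4% of the starts and G at 39.3%. An adenosine at the first position, which m6Am needs, was not more frequent at these annotated starts than at others, as far as 79 starts can tell. Whether the peaks hold m6Am was not tested. Among the 21 peaks over a start that list no GGAC site, A was first in 3 (14.3%, 4.98 to 34.6). Among the 58 that list a site, it was first in 25 (43.1%, 31.2 to 55.9). RefSeq gives the base of an annotated start, and the start used in this tissue was not measured.

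Many genes with a 5′UTR peak carried a further peak. A CDS or 3′UTR peak was listed for 138 of the 276 genes (50%, 44.1 to 55.9), a CDS peak for 59, a 3′UTR peak for 102 and both for 23. For comparison, 25% of the genes with a CDS peak and 18.8% of those with a 3′UTR peak had a peak in either of the other classes. The other classes together hold the most peaks for a 5′UTR peak gene, which raises its share. For a 3′UTR peak alone, the share was 37.0% of the 5′UTR peak genes and 22.4% of the CDS peak genes. A gene with several peaks is counted in each class it has, so these shares are set side by side without a test. In the 138 genes, the 5′UTR peak was stronger than any other in 52 (37.7%, 30.03 to 46.0). The other peak over the 5′UTR peak had a median ratio of 1.83, with quartiles of 0.514 and 6.04. The 5′UTR peaks of these genes had a median of 9.00, and those of the 138 genes without a CDS or 3′UTR peak had 9.60.

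The balance between the 5′UTR peak and the other peaks differed widely from gene to gene. In Slmap, the 5′UTR peak had a fold enrichment of 250 and the 3′UTR peak 2.53, a ratio of 98.8. In Gcnt1 the values were 184 and 4.15, in Arl6ip5 36.6 and 1.95, and in Cav1, the gene of caveolin-1, 97.5 and 4.64. Nlk had 99.9 and 5.47, and Runx2 had 225 in the 5′UTR beside 14.4 for its strongest other peak, in the 3′UTR. In these genes the 5′UTR peak was the strongest of the listed peaks. In Abl1 the CDS peak reached 154, below the 438 of the 5′UTR. Fam43a went the other way with 200 in the 5′UTR and 408 in CDS, as did Ep300 with 172 and 308, Fosl2 with 142 and 219, and Prrx1, a mesenchymal transcription factor, with 37.0 and 145 in the 3′UTR. With 1 value per peak, none of these differences could be set against the spread between libraries.

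**Figure D4:**
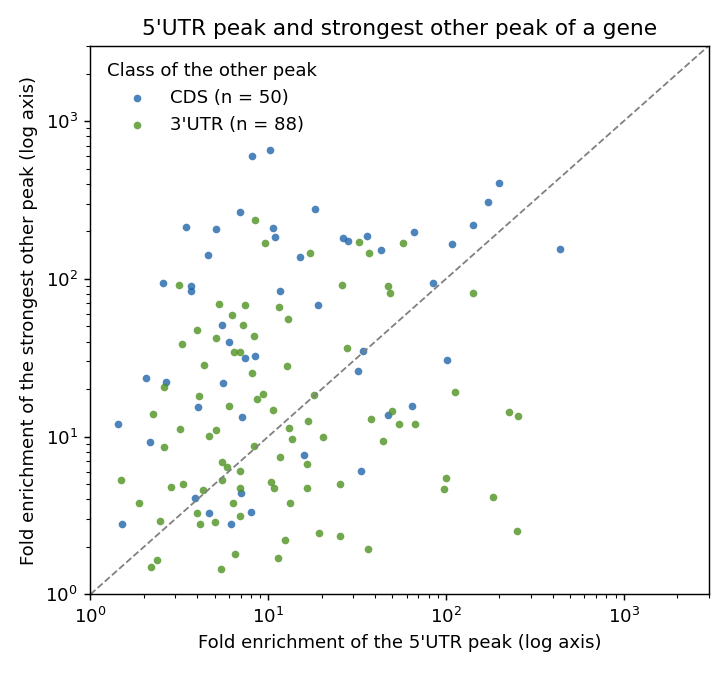
Fold enrichment of the 5′UTR peak (log x axis) and of the strongest CDS or 3′UTR peak (log y axis) of the 138 genes that have both, with 1 point per gene coloured by the class of the other peak. The 52 points under the dashed line of equal values are genes whose 5′UTR peak was the stronger.

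The C2C12 list gave 342 peaks in the 5′UTR among 5433 peaks. Its positions are not on the build of the muscle table, as only 20 of 340 of its 5′UTR peaks fell inside their own gene on GRCm38, so genes were matched by RefSeq transcript and name. A 5′UTR peak in both lists was found for 24 genes, which is 8.70% (5.91 to 12.6) of the 276 muscle genes and 7.41% of the 324 C2C12 genes. Among the 3707 muscle genes without a 5′UTR peak, 2.94% had a C2C12 5′UTR peak, a difference of 5.76 points (2.91 to 9.70). More of the muscle 5′UTR genes had a C2C12 peak in a coding exon (24.3%) or in the 3′UTR (13.0%) than in the 5′UTR. A C2C12 peak of the same class was listed for 41.7% of the muscle CDS genes and 18.8% of the muscle 3′UTR genes. Only 342 of the 5433 C2C12 peaks were in the 5′UTR, so the classes differ in size. The shares of all muscle genes with a C2C12 coding-exon or 3′UTR peak are not given here. The order of these shares was therefore not interpreted. Any C2C12 peak was listed for 40.9% of the muscle 5′UTR genes and for 40.5% of all muscle genes. Both lists depend on which genes each sample expressed, and the share that could have been detected in both is unknown.

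The shared genes had a median muscle fold enrichment of 17.8 with quartiles of 3.28 and 68.5, and the 252 others 8.98 with quartiles of 5.10 and 22.8, so the shared genes were more spread to both sides. The 10 highest were Abl1 at 438, Fbf1 at 254, Dgcr8 at 142, 4931406P16Rik at 122, Zfyve1 at 112, Slc35e4 at 74.4, Hivep2 at 66.5, Brd2 at 50, Arl6ip5 at 36.6 and Tbcb at 20.4. Dgcr8 encodes the partner of Drosha in microRNA processing, Hivep2 a zinc finger transcription factor and Tbcb a tubulin-folding cofactor. The C2C12 list gives the distance of each peak from the transcription start, which does not depend on the build. For 20 of the 25 C2C12 5′UTR peaks in shared genes, this distance fell inside the muscle peak when both were counted from a RefSeq start of the gene, and for 22 it was within 100 bp of it. Where a gene has several starts the nearest fit was taken, which favours agreement. Both lists class these peaks as 5′UTR, which limits where in a gene they can lie. The muscle peak was taken over its span on the genome, introns included, and the match was not tested. Of 9 C2C12 peaks more than 1000 bp from the start, 8 fell inside the muscle peak. In Hivep2 the C2C12 distance was 161077 bp and the muscle peak ran from 160099 to 161884 bp. In Smad4 it was 25823 bp in a muscle peak from 25658 to 26047 bp, and in Dgcr8 4646 bp in a peak from 4013 to 5106 bp. In Abl1 it was 1067 bp in a peak from 252 to 2362 bp. The exceptions were Ecm1 and Tbcb, 13 and 55 bp away, Ptp4a1 and Arhgap11a, 235 and 267 bp away, and 4931406P16Rik, whose peaks lay 27523 bp apart.

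**Figure D5:**
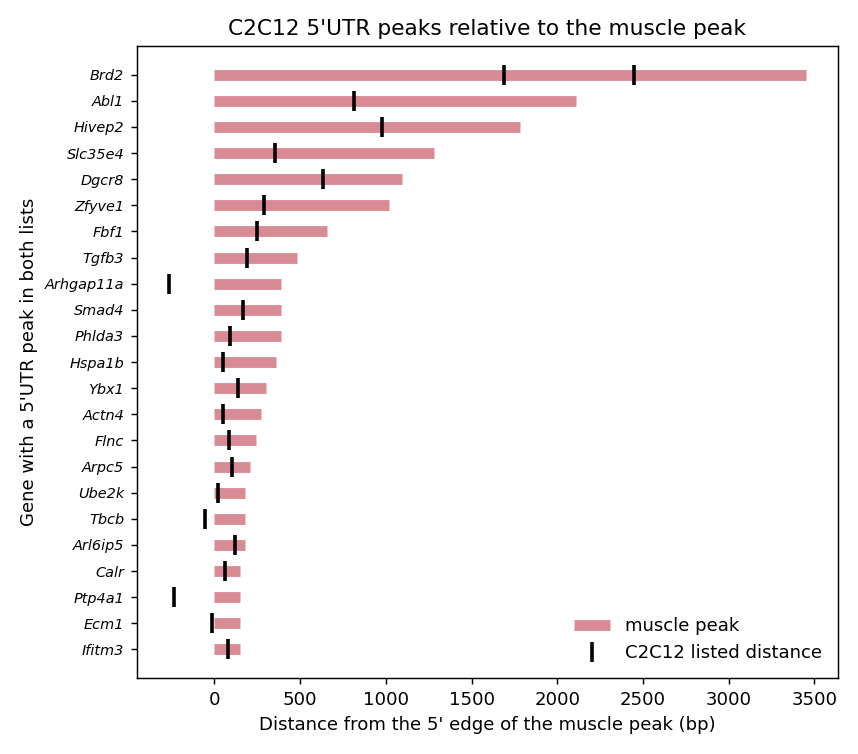
Muscle 5′UTR peaks (red bars) and the listed distances of C2C12 5′UTR peaks (black ticks) for 23 of the 24 shared genes, with distance from the 5′ edge of the muscle peak on the x axis (bp) and genes on the y axis. Bars give the span on the genome, introns included. The gene 4931406P16Rik, whose peaks lay 27523 bp apart, is left off, and 20 ticks fall on the bars.

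Gene groups were described by their counts. Among all genes of the table, 6.93% had a 5′UTR peak. Of the 30 genes in the Notch pathway list, 12 had a peak anywhere and 2 in the 5′UTR. These were Jag1, a Notch ligand, and Adam10, the protease that cleaves Notch receptors. The Jag1 peak (chr2:137116285-137116405, minus strand) had a fold enrichment of 6.90 over 121 bp with 1 GGAC site, its edge 115 bp after the start, and it was the only Jag1 peak in the muscle table. It ranked 172 of the 278. The Adam10 5′UTR peak had 8.30 over 151 bp with 1 site, 15 bp after the start, and Adam10 also had a stronger 3′UTR peak at 43.7. The 5′UTR peaks of Jag1 and Adam10 both lie below the median of the 5′UTR peaks.

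In the list of Wnt, Hippo and TGF-β genes, 20 had a peak and 6 of them in the 5′UTR. Smad4, the shared mediator of TGF-β and BMP signals, had 19.9, the ligand Tgfb3 17.3 with 3 sites, the Wnt transcription factor Tcf7l2 16.5, the receptor Tgfbr2 12.7, the BMP receptor Bmpr2 10.3 and the Hippo kinase Lats1 6.15. Bmpr2 and Tgfbr2 had a stronger peak elsewhere, at 652 in CDS and 27.9 in the 3′UTR. Tcf7l2 had a weaker one, at 4.75 in the 3′UTR, and Smad4, Tgfb3 and Lats1 had no other muscle peak. Tgfb3 was shared with C2C12 too. In the insulin and mTOR list, Gsk3b, a kinase that insulin signalling inhibits, had 113 over 1230 bp with 5 sites, and Igf2r had 15.9. The MAP kinase list had 1 of 16, Map4k4, at 11.6. No test was made on these counts, as they are small and the lists were chosen with earlier results of these data known.

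Heat shock genes carried 2 of 8 in the 5′UTR, Hspb8 at 11.1 over 751 bp with 4 sites and Hspa1b at 10.7 over 359 bp with 1 site. Hspa1b encodes the inducible chaperone HSP70, whose 5′UTR is a known place of m6A after heat shock. Its muscle 5′UTR peak began exactly at the start, and the C2C12 5′UTR peak was 48 bp after it. Hspa1b also had a stronger muscle peak in CDS, at 209 with 6 sites, and Hspb8 had no other muscle peak. The 5′UTR peaks of Hspb8 and Hspa1b both had GGAC sites and both stayed under the table's median. Of genes known for control by upstream open reading frames, 2 of 10 had a 5′UTR peak, Amd1 at 13.1 and Azin1, both of polyamine metabolism, at 2.58. Of the translation factors and ribosomal proteins it was 2 of 10, Eif4g2, an initiation factor that works without the cap-binding protein, at 4.11 and Eif5b, which joins the ribosomal subunits, at 4.03. None of the 10 listed m6A writers, readers and erasers with a peak in the table had it in the 5′UTR.

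In the chromatin list, 4 of 35 genes had a 5′UTR peak, and the paralogous acetyltransferases differed. Ep300 had 172 over 1530 bp with 10 sites and Crebbp 8.10 over 121 bp without a site. Their CDS peaks stood the other way, at 604 with 15 sites in Crebbp and 308 with 8 sites in Ep300. Brd2 had 50 and the histone methyltransferase Nsd3 19.5. The ubiquitin list had 4 of 27, Nedd4l at 16.8, Rnf111 at 10.9, Usp8 at 6.20 and Rnf10 at 1.72. The matrix list had 4 of 21, with the integrin chain Itgav at 20.3, the protease inhibitor Timp2 at 19.2, Fbn1 at 5.98 and the gelatinase Mmp2 at 3.07, all with 2 to 10 sites. Of the myogenic regulators, Id1 at 38.1 and Mef2a, a MADS-box factor of muscle genes, at 1.87 made 2 of 11, and Pax7, MyoD and myogenin had no 5′UTR peak. Fosl2 at 142 was the only 1 of 11 immediate-early genes, Cdkn2c of 12 cell cycle genes and Stat6 at 6.43, a transcription factor of interleukin-4 signalling, of 17 cytokine genes.

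A further grouping by role was made after the members were seen and covers 159 of the 276 genes. The 15 genes of muscle fibre structure, excitation and metabolism had a median fold enrichment of 11.1, and 9 of them reached a start, against 96 of 270 among all 5′UTR peak genes with a RefSeq start (35.6%). Slmap led at 250, followed by Cav1 at 97.5, the insulin-responsive Tbc1d4 at 46.8 and Popdc2 at 26.3. Cav1 is not particular to muscle fibres, and which cells carried its RNA was not measured. The sarcomere genes Actn2, Cmya5 and Flnc were low at 5.37, 3.86 and 1.49. The 18 transcription factors had a median of 17.8, and 11 of them reached the table's median, against 109 of all 276 genes (39.5%). Runx2 at 225, Fosl2 at 142, Hivep2 at 66.5, Nfib at 54.1, Prrx1 at 37.0 and Ebf2 at 31.0 were among these 11. The peaks of the 18 were also longer, with a median of 375 bp against 241 bp in all 276 genes, and length was not separated from strength. The 28 genes of kinases, phosphatases and GTPase signalling had a median of 10.6 and ranged from Ptp4a2 at 1.47 to Abl1 at 438. The 22 genes of RNA capping, decay, splicing and translation had a median of 6.62, below which lie Celf1, Tia1, Edc3 and Sf3a1, and above it Mettl4, a methyltransferase of the METTL family, at 146, and Dgcr8 at 142.

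The 19 myeloid, antigen and interferon genes included Spi1, the factor PU.1 of the myeloid lineage, at 21, the chemokine receptor Ccr2 at 2.18, the lectins Clec4a1 at 18.6 and Clec4a2 at 2.61, and the interferon-induced Igtp at 26.4, Oasl2 at 5.10 and Ifitm3 at 1.5. These genes are best known from immune cells, and which cells of the muscle carried their RNA was not measured. The 7 chaperone and stress genes had a median of 5.40 and none reached the table's median, while 3 of them, Hspa1b, Phlda3 and Calr, had a C2C12 5′UTR peak, against 24 of all 276 genes. The chaperone genes Hspb7 at 11.3, Hspb8 at 11.1 and Serpinh1 at 1.5 were left out of this group. None of them had a C2C12 5′UTR peak, so the count depends on the grouping. Since the groups were made with the members in view, these counts are descriptions. In the 14 genes grouped as growth factors and their receptors the median was 9.50, with Igf1 at 4.62. The group also takes in Plxna2, a semaphorin receptor, at 101, its highest value, and the semaphorin Sema6a at 93.9, which are not growth factor genes.

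Some 5′UTR peaks cannot be given to 1 gene. Of the 278, 27 overlap another listed peak, 12 on the same strand and 15 on the opposite strand. Hyal1 shared its 2 peaks with its neighbours Hyal3 and Nat6, at 28.2 and 27.6 in the peak common to Hyal1 and Nat6. Ggnbp1 at 102 and Zbtb9 at 70.6 shared 504 bp, and Zbed6 at 40.4 and Gm38394 at 47.1 shared 1453 bp. On opposite strands, Ube3a, the ubiquitin ligase of Angelman syndrome, had 27.9 and its antisense partner 9330162G02Rik 36.9, over 854 bp, and Cped1 had 61.9 and Gm26719 53.7, over 871 bp. The strand setting of the peak calling is not given in the sources used here, so the reads of such pairs cannot be told apart. Fbn1 at 5.98 and Gm9913 at 262, on opposite strands with 414 bp in common, differed by contrast. The Gm9913 peak, the third strongest of the 5′UTR peaks, thus lies in part opposite to the 5′UTR peak of Fbn1.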

How the data were processed

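MeRIP-Seq peaks of muscle and of C2C12 cells were used as the authors deposited them. Methods and labels state polyA selection, an anti-m6A antibody and a stranded library kit. The submitters' processing notes name TopHat, MACS2 and mm10, and the muscle columns carry names that exomePeak writes. For each muscle peak the authors deposited a p-value, a fold enrichment of IP over input as a ratio, exon blocks and GGAC positions. The p-value was read and not used for selection. The log2 fold, p and FDR columns of the authors' own comparison of the genotypes were not used, nor were 2 peak columns damaged by a spreadsheet. Columns of single samples left out numbered 0. Depth is unknown, as no table holds counts.

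The class column selected the members. The length of a peak is the sum of its exon blocks. Starts were the 5′ end of the RefSeq gene and those of its promoter windows (GRCm38.p6), matched by symbol for 272 of 278 peaks, of which 267 overlap the gene's span. Shares have 95% Wilson intervals, differences Newcombe intervals and medians binomial order-statistic intervals, all checked on simulated data. No hypothesis test was made, since the muscle libraries are not replicated and neither table gives values of single libraries. Genes were named by a rule: the 10 highest, 3 lowest, 5 longest and 5 with most sites, the 10 highest shared with C2C12, the 5 highest with another peak, Jag1, and up to 5 per list. Of the genes named by this rule, 1 is left out of the text. Other names were chosen after their values were seen. The members and lists were chosen with earlier results of these data known. Alternatives changed the peaks counted, the length, the start and the filter on fold enrichment. Python 3.11.15, pandas 2.3.3, numpy 2.4.6, scipy 1.17.1 and matplotlib 3.10.9 were used.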

Additional observations from a re-analysis of the deposited data

How the results depend on the processing

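Of 20 alternatives, 14 stayed within the interval of the reported value, or within 1.5 times for a count. With only peaks at or above the table's median fold enrichment of 12.9, the share of 5′UTR peaks with a GGAC site was 83.6% in place of 68.7%, the share of genes that also have a CDS or 3′UTR peak was 32.1% in place of 50%, and 15 list genes remained of 35. The median fold enrichment of peaks with a GGAC site was 11.7 in place of 9.54. Counting peaks within 100 bp of a start raised the share that reach it from 35.3% to 65.1%, and counting any C2C12 peak raised the shared genes from 8.70% to 40.9%. Leaving out the 27 overlapping peaks, or using the starts of promoter windows only, was chosen after seeing the data and moved no value out of its interval. No paired analysis was possible because the muscle libraries are not replicated, and values of single libraries, the 2 C2C12 IP libraries included, are not in the tables used. The share of peaks with the wider motif was not computed, as sequence was at hand for promoter windows only. Without counts, depth sets no stated limit, and an unlisted peak is not evidence of no methylation.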
